A study of Rattus norvegicus with 30 samples.

Results

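The nuclear pore complex is the channel through which RNA and protein pass between nucleus and cytoplasm, and its subunits, the nucleoporins, are described here across a course of serum starvation. Members were taken by symbol: every row of the table whose symbol is Nup followed by a number, with or without a letter, together with Aaas, Pom121, Tpr, Ndc1 and Rae1. This gave 23 of the 17353 genes in the table, and the rule used no measured value. Of the 23, 21 had a mean of at least 1 FPKM over all libraries and were tested among 8940 such genes, while Nup210 and Nup210l lay below that level. FPKM is fragments per kilobase of transcript, scaled to library size. The symbols Nup50, Nup133, Nup188 and Seh1l had no row in the table, so these genes could not be analysed.

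Total RNA was sequenced from REF cells, an established line of rat embryonic fibroblasts with no transformation. Control cells had not been starved of serum, and starved cells had gone without it for 2, 3, 4, 6, 8, 10, 12, 14 or 16 days. With 3 biological replicates at each of these 10 conditions there were 30 libraries. The title of the series places the cells on a scale of quiescence depth, a state of reversible arrest outside the cell cycle.

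Pores are built from modules that repeat around a ring. The Y complex and the inner ring form the scaffold, transmembrane nucleoporins anchor it in the nuclear envelope, and nucleoporins with phenylalanine-glycine repeats fill the central channel and set its selectivity. Filaments on the cytoplasmic side take part in the release of exported RNA, and the nuclear basket reaches into the nucleoplasm. In dividing cells pores are taken apart at mitosis, put together again at its end and added during interphase, whereas scaffold proteins of arrested cells are known for very slow turnover.

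Replicates correlated at r = 0.9814 to 0.9913 across genes on the log2 scale. The replicate 1 libraries stood apart on the first component of the residuals, between -17.8 and -5.8 against 0.8 to 13 for the others. Control replicate 1 was the lowest control for 13 of the 21 tested members. With replicates 2 and 3 alone the members called were 18 at day 2 against control and 19 at day 16 against control, all lower. Of 12 fibroblast markers, 7 had a mean of at least 1 FPKM. The summed level of the 12 was 10184 to 10333 FPKM in the control libraries and 10988 to 21604 in starved ones, but Col1a2, a collagen chain that defines fibroblasts, was listed at 0 in every library, and Thy1, Pdgfra, Dcn and Fap had means under 1 FPKM. All 8 macrophage and all 7 endothelial markers had means under 1 FPKM over the 30 libraries. Macrophage markers summed to 7.11 to 7.4 FPKM in control libraries and 0.245 to 2.16 in starved ones, and endothelial markers to 0.418 to 0.763 and 0.0263 to 0.489 FPKM. Skeletal muscle markers summed to 316 to 338 FPKM in control libraries and 10.6 to 40.1 in starved ones, led by the myogenic factor Myod1 (237 FPKM in control and 3.51 at day 2, group means), while Myf5 and Actn2 were at 0. Epithelial markers summed to 10.9 to 12.9 and then 20.3 to 75.8 FPKM, nearly all of it Krt8. Adipocyte markers summed to 3.69 to 4.68 and 2.71 to 5.09 FPKM and neural and glial markers to 7.83 to 10.3 and 5.91 to 23 FPKM, with adipocyte-defining Fabp4 and Pparg and neuronal Rbfox3 at 0 in every library. The part of these changes in the results on pore genes was not tested. In RNA from a whole culture, fewer cells of a kind and less RNA per cell cannot be told apart.

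Pore gene transcripts fell within the first 2 days of starvation. Summed over the 23 members, the level was 601 ± 34.7 FPKM (SD, n = 3) in control cells and 285 ± 10.3 FPKM (n = 3) at day 2. By limma, 18 of 21 tested members fell and 0 rose at an adjusted p under 0.05 (0 rose at an unadjusted p under 0.05 as well). Over all genes tested, 30.7% fell and 30% rose. The fall was at least 2-fold for 10 members, a call that 8.43% of all tested genes met. The median log2 change of the members was -0.96, against 0.00 over all tested genes, and single members ranged from -2.07 to -0.09. In 18 members the 3 day 2 libraries all lay below the 3 control libraries, as did those of 32.4% of all tested genes.

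**Figure D1:**
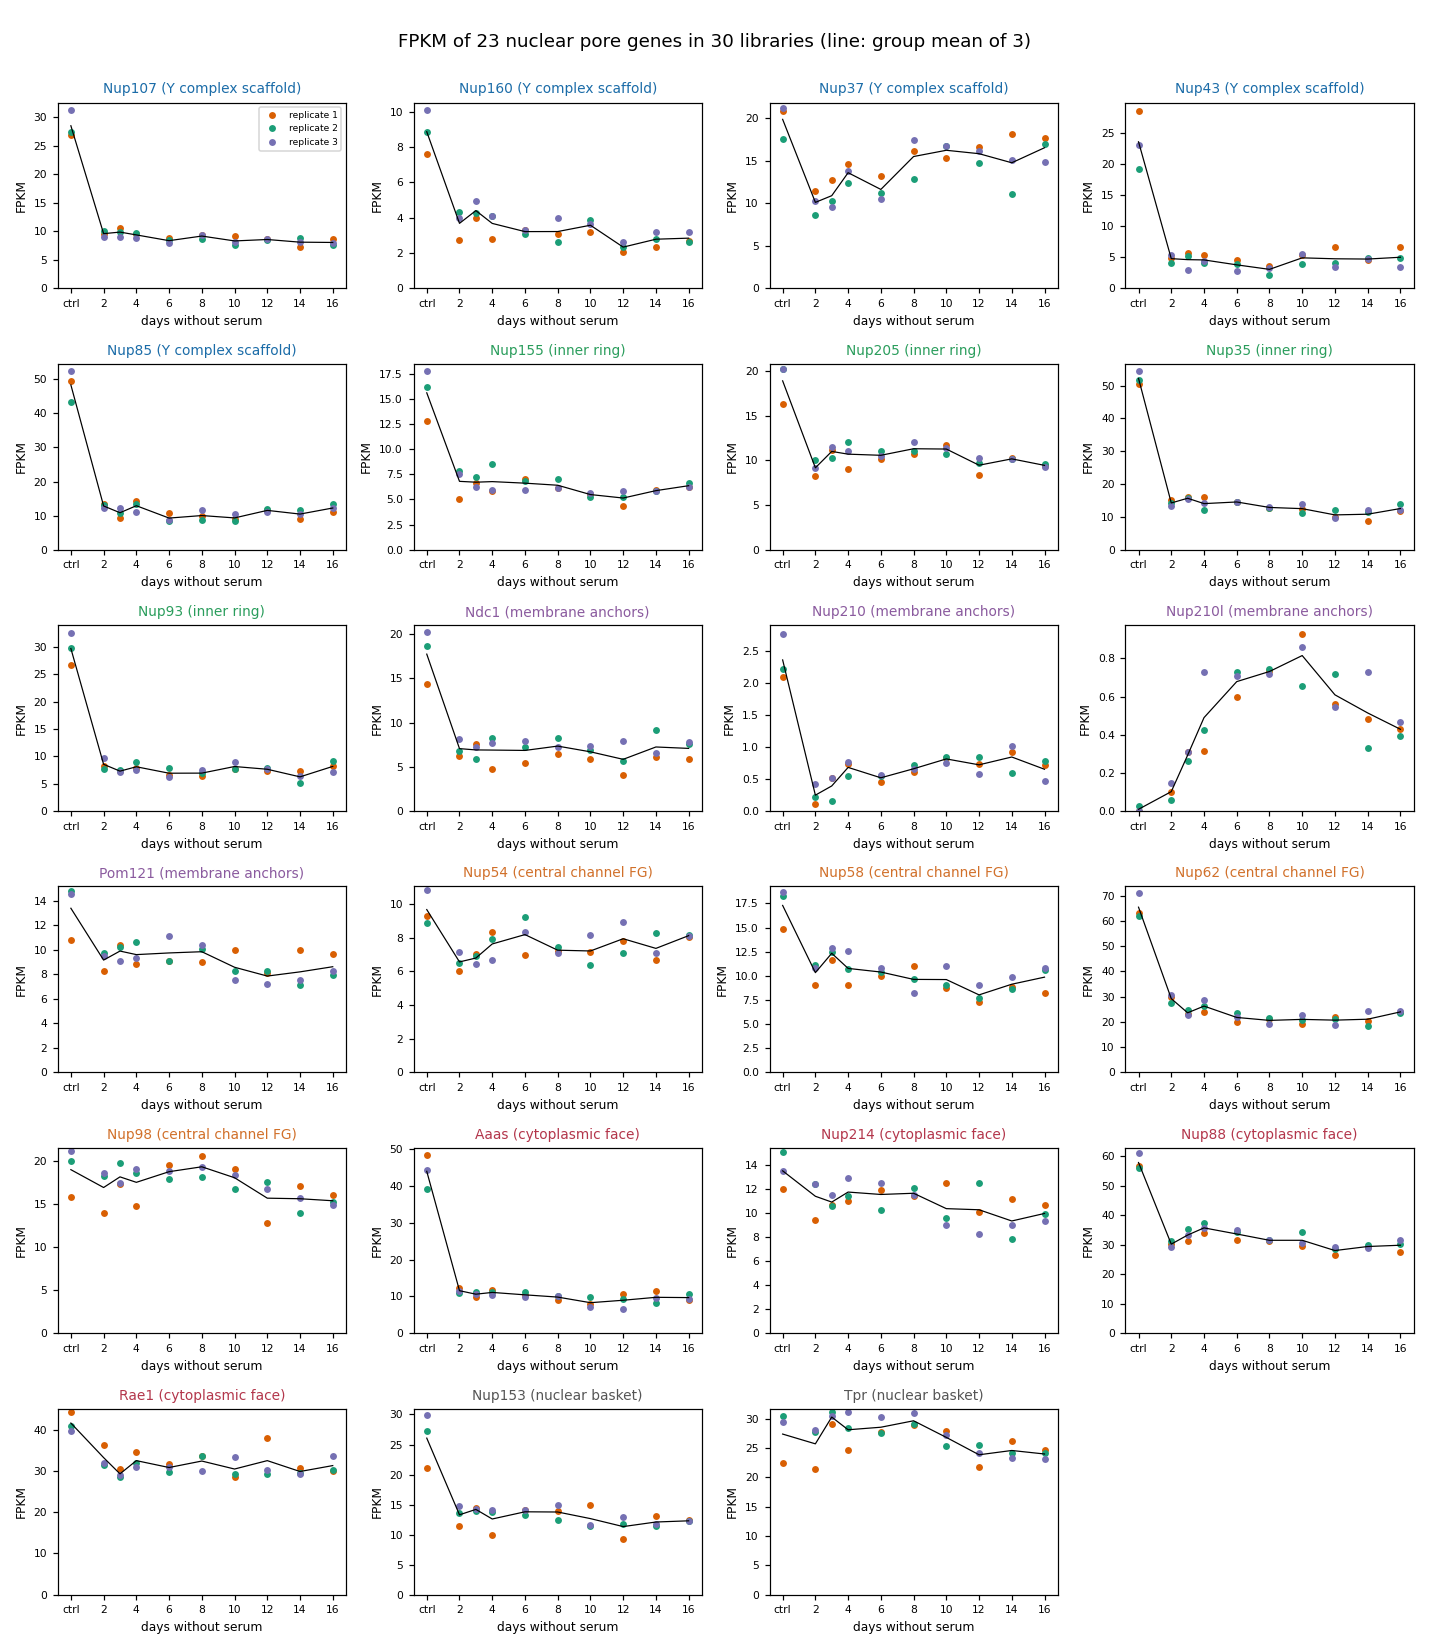
Level in FPKM (vertical axis, from 0) of each of the 23 pore genes against days without serum (ctrl, unstarved), 1 point per library and a line through the group means of 3. Most panels drop from control to day 2 and stay low, the panels of Tpr and Nup98 stay near their control level, Nup37 climbs again after day 2 and Nup210l is higher in starved than in control cells but under 1 FPKM.

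All 5 members placed in the Y complex, the outer scaffold ring, by their role here fell at day 2, with a median log2 change of -1.47. Nup85, one of the short-arm subunits, stood at 49.5, 43.2 and 52.3 FPKM in control replicates 1 to 3 and at 13.4, 13 and 12.1 FPKM at day 2. Every control library was thus far above every day 2 library, and the log2 change was -1.84 ± 0.12 (SE; limma adjusted p = 1.12e-12). Nup107, in the stem of the Y, was at 26.8, 27.3 and 31.3 FPKM and then 9.6, 10.1 and 9.06 FPKM, again without overlap, a log2 change of -1.47 ± 0.09 (limma adjusted p = 1.9e-13). Nup43, a small propeller protein of the same complex, had the largest change of the tested members. Its control libraries were at 28.5, 19.1 and 23 FPKM, more scattered than those of Nup85, and its day 2 libraries at 4.9, 4.1 and 5.35 FPKM. The log2 change was -2.07 ± 0.22 (limma adjusted p = 1.16e-08). Nup160 went from 7.61, 8.87 and 10.1 to 2.73, 4.3 and 4.01 FPKM. Nup37 changed least of these 5, from 20.8, 17.6 and 21.2 to 11.4, 8.64 and 10.3 FPKM, and its libraries did not overlap either. Their log2 changes were -1.08 ± 0.15 and -0.91 ± 0.14 (SE; limma adjusted p = 5.25e-07 and 3.51e-06).

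The inner ring, which lines the membrane and holds the channel nucleoporins, was lower too: 4 of 4 members fell, with a median log2 change of -1.39. Nup35, which binds the pore membrane, stood at 50.5, 51.7 and 54.3 FPKM in control cells and at 15.2, 14.1 and 13.4 FPKM at day 2. This was the smallest adjusted p among the members (1.11e-13 by limma, log2 change -1.81 ± 0.11, SE). Nup93, the linker that ties the ring to the channel, was at 26.7, 29.8 and 32.6 FPKM and then 8.23, 7.69 and 9.67 FPKM (log2 change -1.69 ± 0.11, limma adjusted p = 2.13e-12). Neither gene had overlapping groups. The large ring proteins Nup155 and Nup205 fell by 1.10 ± 0.14 and 0.96 ± 0.10 (SE) on the log2 scale. Nup205 went from 16.3, 20.2 and 20.2 to 8.3, 10 and 9.2 FPKM.

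Promoters are shown for the members with the smallest adjusted p at day 2 that had one in the RefSeq table, Nup35, Nup85 and Nup93, and for Nup37, which had the smallest adjusted p over the starved days. Each is the 250 bases before the annotated start site on build GRCr8, read 5′ to 3′ on the gene's strand. Coordinates belong to that build, not to the rn6 build of the expression values. Both strands were searched for 8 motifs: the cell cycle element CHR (TTTGAA or TTCGAA), an E2F site (TTTGGCGC, TTTCCCGC, TTTCGCGC or TTTGCCGC), CCAAT, ETS (CCGGAAG), NRF1, YY1 (AAGATGGCG), CRE (TGACGTCA) and TATAAA. Capitals mark matches to any of them but TATAAA, and in the windows shown these are CHR and CCAAT.
Nup35 promoter, chr3:85965657-85965906, plus strand: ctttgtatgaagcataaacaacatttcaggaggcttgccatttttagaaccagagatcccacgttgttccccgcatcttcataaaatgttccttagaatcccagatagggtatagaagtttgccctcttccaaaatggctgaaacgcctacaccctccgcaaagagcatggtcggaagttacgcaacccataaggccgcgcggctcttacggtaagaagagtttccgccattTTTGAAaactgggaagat
Nup85 promoter, chr10:101305185-101305434, plus strand: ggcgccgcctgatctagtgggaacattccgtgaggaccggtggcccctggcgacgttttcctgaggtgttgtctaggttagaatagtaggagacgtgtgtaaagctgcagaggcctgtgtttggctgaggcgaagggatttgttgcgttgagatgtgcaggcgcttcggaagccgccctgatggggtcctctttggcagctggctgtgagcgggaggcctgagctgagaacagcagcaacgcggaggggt
Nup93 promoter, chr19:10793938-10794187, minus strand: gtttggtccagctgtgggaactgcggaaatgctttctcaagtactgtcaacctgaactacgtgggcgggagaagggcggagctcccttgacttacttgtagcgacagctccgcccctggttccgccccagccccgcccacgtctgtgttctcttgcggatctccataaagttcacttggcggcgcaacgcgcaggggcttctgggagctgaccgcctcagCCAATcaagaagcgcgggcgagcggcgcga
Nup37 promoter, chr7:24460982-24461231, plus strand: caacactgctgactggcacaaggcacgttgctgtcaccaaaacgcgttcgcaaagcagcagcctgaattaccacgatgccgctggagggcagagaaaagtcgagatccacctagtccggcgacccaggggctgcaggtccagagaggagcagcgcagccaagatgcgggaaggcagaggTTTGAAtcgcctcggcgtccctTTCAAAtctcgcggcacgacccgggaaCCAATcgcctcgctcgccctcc
The Nup35 window held a CHR match at -18 to -13 from the start site. The Nup37 window held CHR matches at -71 to -66 and at -49 to -44, and CCAAT at -22 to -18. The Nup93 window held only CCAAT, at -30 to -26, and none of these letters occurred in the Nup85 window. Of the 19 tested members with a promoter in the table, 5 (26.3%) held a CHR match. The share was 11.9% of 6972 tested genes and 17.4% of all 33469 promoters. The 5 were Nup35, Nup37, Nup98, Pom121 and Tpr, with log2 changes at day 2 of -1.81, -0.91, -0.16, -0.49 and -0.09. Those of Nup98 and Tpr did not pass. E2F was matched in 2 of the 19 (10.5%; Nup155 and Nup62), against 3.49% of tested genes, and also in Nup210, which was not tested. CCAAT was matched in 8 (42.1% against 36.5%) and CRE in 1 (5.26% against 3.26%). The other motifs were less frequent than among tested genes: ETS in 3 (15.8% against 17.7%), NRF1 in 2 (10.5% against 12.8%), and YY1 and TATAAA in 0 (against 1.58% and 5.79%). These are matches of letters in one window and no measure of binding.

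Among the membrane anchors, both tested genes fell. Ndc1, a transmembrane nucleoporin, went from 14.4, 18.6 and 20.2 FPKM to 6.18, 6.79 and 8.17 FPKM, a log2 change of -1.22 ± 0.19 (SE; limma adjusted p = 6.96e-06). Pom121 changed less, from 10.8, 14.8 and 14.6 to 8.24, 9.73 and 9.52 FPKM (log2 change -0.49 ± 0.13, limma adjusted p = 0.00178). Control and day 2 libraries did not overlap for either gene. For Pom121 control replicate 1 lay close to the day 2 libraries, the other controls well above them.

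The luminal nucleoporin Nup210 was low in every group. It was at 2.09, 2.22 and 2.77 FPKM in the control libraries and at 0.11, 0.212 and 0.418 FPKM at day 2, and it then lay between 0.152 and 1.01 FPKM from day 3 to day 16. All 27 starved libraries were thus below the lowest control. In a fit with no filter on low values its change at day 2 was -1.43 ± 0.11 (SE; limma adjusted p = 1.1e-10), and from day 2 to day 8 it rose by 0.42 (limma adjusted p = 0.00495). Its relative Nup210l, still lower, was listed at 0, 0.026 and 0 FPKM in control cells, at 0.101, 0.059 and 0.144 FPKM at day 2 and at 0.928, 0.656 and 0.861 FPKM at day 10, its highest group. Without the filter its change at day 2 did not pass (0.13, limma adjusted p = 0.233). It then rose by 0.65 ± 0.08 from day 2 to day 8 (limma adjusted p = 1.44e-06) and fell by 0.28 from day 8 to day 16 (limma adjusted p = 0.0173). At these levels changes on the log2(FPKM + 1) scale understate the ratio, and the depth behind them is unknown.

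In the central channel, 3 of 4 genes fell, with a median log2 change of -0.59. Nup62 had the highest FPKM of the members in control cells. It went from 63.1, 62.1 and 71 FPKM to 29.8, 27.3 and 30.4 FPKM, a log2 change of -1.14 ± 0.09 (SE; limma adjusted p = 6.46e-11). Its partners in the channel complex changed less: Nup58 and Nup54 had log2 changes of -0.69 ± 0.13 and -0.50 ± 0.11 (limma adjusted p = 4.23e-05 and 0.00039). Nup98, whose product is cleaved into a channel protein and the Y complex subunit Nup96, was at 15.8, 20 and 21.1 FPKM in control libraries and at 13.9, 18.2 and 18.6 FPKM at day 2. These ranges overlapped, and the log2 change of -0.16 ± 0.12 did not pass (limma adjusted p = 0.263). The products of Nup98 cannot be followed separately in gene-level values.

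On the cytoplasmic face 3 of 4 genes fell. Aaas, which encodes the scaffold-bound protein ALADIN, stood at 48.2, 39.2 and 44.2 FPKM in control cells and at 12.3, 10.9 and 11.5 FPKM at day 2, with no overlap (log2 change -1.83 ± 0.13, SE; limma adjusted p = 4.37e-12). Nup88, which anchors the filaments, fell from 56.5, 55.8 and 61.1 to 30.3, 31.2 and 29.1 FPKM, without overlap (log2 change -0.91 ± 0.07, limma adjusted p = 1.36e-11). Rae1, an mRNA export factor that also acts at mitosis, went from 44.2, 40.8 and 39.7 to 36.2, 31.4 and 32 FPKM, a log2 change of -0.32 ± 0.09 (limma adjusted p = 0.00249). The Rae1 call did not hold after upper quartile or quantile scaling (limma adjusted p = 0.0585 and 0.0646). Nup214, the filament protein that docks export factors, was at 12, 15.1 and 13.5 FPKM and then 9.45, 12.4 and 12.4 FPKM, with overlap, and did not pass (log2 change -0.23 ± 0.14, limma adjusted p = 0.154).

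The nuclear basket was split. Nup153, which holds the basket on the pore, fell from 21.1, 27.2 and 29.9 to 11.5, 13.6 and 14.8 FPKM, a log2 change of -0.92 ± 0.13 (SE; limma adjusted p = 1.64e-06). Tpr, the coiled-coil protein that forms the basket filaments, was at 22.4, 30.4 and 29.4 FPKM in control libraries and at 21.4, 27.7 and 28.1 FPKM at day 2. Its groups overlapped, and its log2 change of -0.09 ± 0.10 did not pass (limma adjusted p = 0.493) and lay between -0.09 and 0.01 under the scalings tried. In both groups replicate 1 was the lowest library for Tpr, as it was for Nup98 and Nup214. For these 3 genes each day 2 library was below the control library of the same number, and none passed with the number as a block either (limma adjusted p = 0.43 for Tpr, 0.23 for Nup98 and 0.154 for Nup214).

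**Figure D2:**
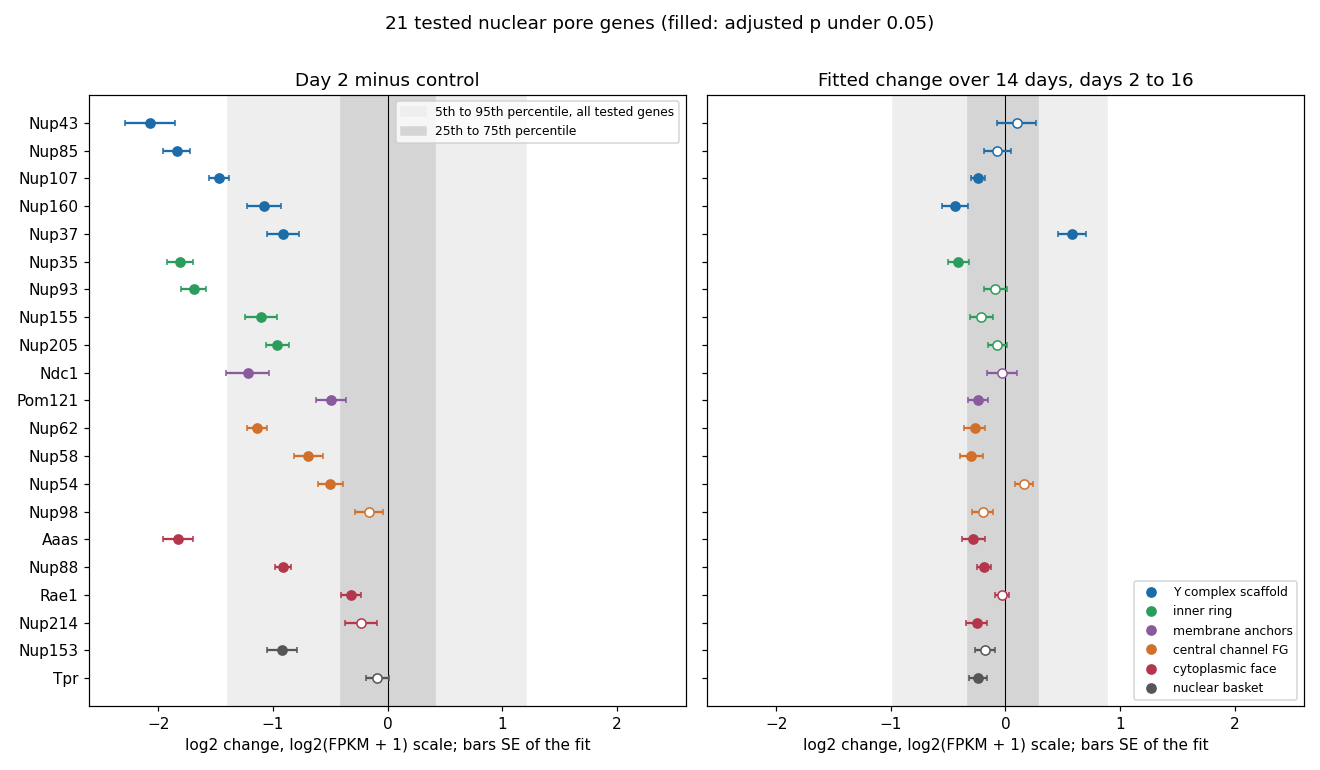
Log2 change of the 21 tested members (points, with SE bars, coloured by role and filled where the adjusted p is under 0.05) from control to day 2 on the left and fitted over the 14 days from day 2 to day 16 on the right, over grey bands for all tested genes. On the left 18 points are filled and lie left of 0, and on the right the points lie between -0.44 and 0.58, with Nup37 the filled point to the right of 0.

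The order of the levels changed with these unequal falls. FPKM is scaled to length, and levels of different genes are set side by side here with a limit. The annotation is not given, and a faulty gene model would shift a gene's level against the others. In control cells Nup62 (65.4 FPKM, group mean), Nup88 (57.8), Nup35 (52.2), Nup85 (48.3), Aaas (43.9) and Rae1 (41.6) led. At day 2 the order began with Rae1 (33.2 FPKM), Nup88 (30.2), Nup62 (29.2), Tpr (25.7) and Nup98 (16.9). Of 22 pairs of neighbours in the order, 17 had overlapping libraries in control cells and 18 at day 2, so that most neighbours did not differ beyond their spread. Relative to Nup107 in the same library, Nup98 was at a ratio of 0.59, 0.733 and 0.675 in control cells and 1.44, 1.8 and 2.05 at day 2. These ratios did not overlap, and at day 16 they were 1.85, 2.02 and 1.87.

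After day 2 the summed level of the 23 members was 295 ± 11.9 FPKM (SD, n = 3) at day 4, 283 ± 4.22 at day 8, 258 ± 3.53 at day 12 and 272 ± 3.78 at day 16. For 15 of the 21 tested members all 27 starved libraries lay below the lowest control, which was so for 21.5% of all tested genes. The exceptions were Pom121 (26 of 27 libraries below), Nup37 and Nup54 (25 each), Nup214 (20), Nup98 (7) and Tpr (2). Against control, day 16 again had 18 members that fell and 0 that rose (limma; 0 rose at an unadjusted p under 0.05), where 35% and 32.4% of all tested genes did so. This comparison uses the same control libraries as that of day 2. All 3 day 16 libraries lay below the 3 controls for 18 members and above them for 0, against 36.2% and 34.1% of all tested genes. The median log2 change was -1.01, against -0.02 over all tested genes. Aaas had the largest log2 change at day 16, -2.07 (limma adjusted p = 2.23e-13), at 9.11, 10.8 and 9.19 FPKM. Nup35 (log2 change -1.98, limma adjusted p = 9.12e-15) and Nup107 (-1.70, 5.26e-15) were also below every control library. The weakest calls were Nup214 (log2 change -0.40, limma adjusted p = 0.0121), lost without control replicate 2 (0.0659) and after upper quartile scaling (0.0804), and Nup98 (-0.28, 0.0485). The Nup98 call was lost without control replicate 2 (0.141) or 3 (0.204) and without day 16 replicate 1 (0.0595), 2 (0.0963) or 3 (0.111). It was also lost after upper quartile (0.22) and quantile scaling (0.114), without the filter on low values (0.0617), without a trend in the spread (0.0505) and in a fit of these 2 groups alone (0.0678).

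Within the starved course, from day 2 to day 16, 10 members fell and 1 rose by the slope over the 27 starved libraries, where 28.9% and 26.6% of all tested genes did. The median fitted change over the 14 days was -0.20 on the log2 scale, against -0.02 over all tested genes, and 0 members lay below the 5th percentile of all tested genes (-0.98). Nup35 fell most clearly in the test, by 0.41 ± 0.09 (SE; limma adjusted p = 0.000325), and was at 11.8, 13.8 and 12 FPKM at day 16. Nup160 fell by 0.44 ± 0.11 and Nup107 by 0.24 ± 0.06 (limma adjusted p = 0.00163 and 0.00153). The other 7 were Tpr, Nup88, Nup58, Nup62, Aaas, Pom121 and Nup214, which fell by between 0.19 and 0.30 (limma adjusted p from 0.00873 to 0.0239). Of them, Tpr and Nup214 had not passed the test at day 2. A negative slope was not always a steady fall. In group means, Nup88 was at 30.2 FPKM at day 2, 35.7 at day 4 and 29.8 at day 16. Nup58 was at 10.3 FPKM at day 2, 12.3 at day 3 and 9.84 at day 16. Nup62 was at 29.2 FPKM at day 2, lowest at day 8 (20.5) and at 23.9 at day 16. The 7 calls were less firm: Nup62 and Aaas were not called without the day 2 libraries (limma adjusted p = 0.229 and 0.0875), Nup58, Pom121 and Tpr without day 3 (0.0993, 0.0619 and 0.0559), Nup88 without day 4 (0.0525) and Nup214 without day 14 (0.0926). Pom121 was also lost without day 12 (0.0582), Tpr without day 16 (0.0552), Nup62 and Nup214 without day 4 (0.0508 and 0.055), and Nup214 without day 14 replicate 2 (0.057). The slope fit takes the 27 libraries as independent, though libraries of the same day share that day. In a fit of time point means only Nup35, Nup107, Nup160 and Nup214 were called as falls. Aaas, Nup58, Nup62, Nup88, Pom121 and Tpr were not (limma adjusted p from 0.0725 to 0.142).

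Nup37 was the member that rose over the starved days. Its 3 libraries were at 11.4, 8.64 and 10.3 FPKM at day 2, 16.2, 12.9 and 17.4 FPKM at day 8 and 17.7, 17 and 14.9 FPKM at day 16. The libraries of days 8 and 16 were all above those of day 2, and at day 14 replicate 2 stood lower (11.1 FPKM) than replicates 1 and 3 (18.1 and 15.1 FPKM). The fitted change over 14 days was 0.58 ± 0.12 (SE; limma adjusted p = 0.000116). Most of it lay before day 8, with a log2 change from day 2 to day 8 of 0.57 ± 0.14 (limma adjusted p = 0.00205). At day 16 Nup37 was -0.25 ± 0.14 from control, which did not pass (limma adjusted p = 0.114, and 0.0451 with the replicate number as a block). A second member, Nup54, passed as a rise in the slope after quantile scaling (0.21, limma adjusted p = 0.0276) and without day 6 (0.18, 0.0404) or day 6 replicate 2 (0.18, 0.0485), and Nup210 did so without the filter on low values (0.38, 0.00174).

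Nup37 belongs to the same complex as Nup107, Nup160, Nup85 and Nup43, which are held in equal numbers in the assembled Y. The ratio of Nup37 to Nup107 transcripts was 0.777, 0.646 and 0.676 in the control libraries, 1.19, 0.852 and 1.13 at day 2 and 2.05, 2.25 and 1.87 at day 16. The 3 groups did not overlap, whereas day 14 ranged from 1.25 to 2.52. The ratio of Nup160 to Nup107 was 0.31 ± 0.0227 (SD, n = 3) in control cells and 0.354 ± 0.0468 at day 16, with overlapping libraries. The ratio of Nup43 to Nup107 was 0.833 ± 0.201 in control cells, 0.502 ± 0.093 at day 2, 0.332 ± 0.0674 at day 8 and 0.618 ± 0.171 at day 16. Across the 27 starved libraries, which share their days, the median correlation between pairs of tested members was 0.166 (210 pairs, log2 scale), with Nup98 and Tpr highest (r = 0.876) and Nup35 and Nup37 lowest (r = -0.562). Over all 30 libraries the median was 0.718, and Nup107 and Nup35 were highest (0.961).

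**Figure D3:**
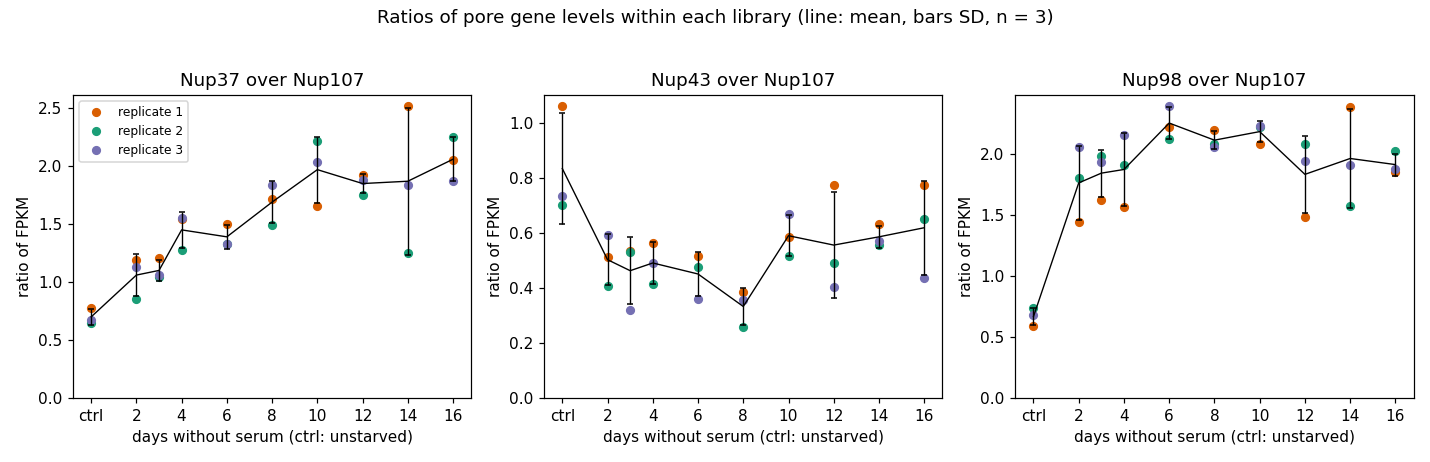
Ratio of FPKM of Nup37, Nup43 and Nup98 to Nup107 within each library (points, coloured by replicate) against days without serum, with a line through the means and SD bars (n = 3). The Nup37 ratio goes from 0.699 in control cells to 2.06 at day 16, the Nup43 ratio is lowest at day 8 (0.332) and the Nup98 ratio is above its control value of 0.666 in every starved group.

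The 2 spans of the starved course showed few calls, at or below the share of all tested genes. From day 2 to day 8, 2 members rose and 2 fell, where 17.4% and 18.4% of all tested genes did. Besides Nup37, Nup205 rose by 0.28 ± 0.10 (SE; limma adjusted p = 0.0291). Nup62 fell by 0.49 ± 0.09 (limma adjusted p = 0.000136), to 20.9, 21.4 and 19.3 FPKM at day 8, below all its day 2 libraries, and stood at 24, 23.6 and 24.1 FPKM at day 16. Nup85 fell by 0.33 ± 0.12 (limma adjusted p = 0.0353). The Nup205 call was lost without day 2 replicate 1 (limma adjusted p = 0.141) or 3 (0.0575) and day 8 replicate 2 (0.0521) or 3 (0.123), and that of Nup85 without day 2 replicate 1 (0.102) or 2 (0.0828) and day 8 replicate 1 (0.0885) or 2 (0.167).

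From day 8 to day 16 Tpr fell by 0.29 ± 0.10 (SE; limma adjusted p = 0.0353), from 28.9, 29.1 and 31 to 24.6, 24.2 and 23.2 FPKM, without overlap. It was the 1 member called of 21, with 0 rises by limma (3 at an unadjusted p under 0.05), where 14.4% of all tested genes fell and 15.8% rose. This call was lost when any 1 of the 6 libraries was left out (limma adjusted p from 0.0558 to 0.117).

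Pore genes outside the naming rule fell in part at day 2. Of 12 tested, 8 fell and 0 rose by limma, where 30.7% and 30% of all tested genes did, with a median log2 change of -0.47. Eny2, a basket-bound export factor, had a log2 change of -0.79 ± 0.12 (SE; limma adjusted p = 2.35e-06). The RNA helicase Ddx19a and its activator Gle1, which release exported mRNA at the cytoplasmic face, had changes of -0.57 ± 0.09 and -0.58 ± 0.09 (limma adjusted p = 3.72e-06 and 4.71e-06). Sec13 went from 163 to 119 FPKM (group means; log2 change -0.45 ± 0.08, limma adjusted p = 4.81e-05). Ranbp2 was among those that did not pass (15.7 to 14 FPKM, -0.14 ± 0.15, limma adjusted p = 0.446). Over the starved days 2 of the 12 rose and 0 fell by limma, where 26.6% and 28.9% of all tested genes did, so the share of rises was below that of all genes. They were the SUMO protease Senp2, by 0.58 ± 0.09 (limma adjusted p = 6.58e-06), and Ddx19a, by 0.35 ± 0.07 (limma adjusted p = 0.000129).

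Genes of the transport machinery that uses the pore are set here against the 30.7% of all tested genes that fell and the 30% that rose at day 2. Of 6 tested genes of the Ran cycle, which gives transport its direction, 5 fell and 0 rose by limma, with a median log2 change of -1.77, and Rangrf did not pass (0.26 ± 0.15, SE, limma adjusted p = 0.143). Ran itself went from 756 to 214 FPKM (group means; log2 change -1.82 ± 0.09, SE, limma adjusted p = 4.71e-15) and its activating protein Rangap1 from 119 to 21.1 FPKM (-2.45 ± 0.11, 8.32e-16). Of 15 importins and adaptors 8 fell, led by Kpna2 (388 to 51.6 FPKM, log2 change -2.89 ± 0.16, limma adjusted p = 2.24e-14). Of 7 exportins 5 fell, among them Xpo1 (62.4 to 22.8 FPKM, -1.41 ± 0.10, 4.25e-12). Of 13 mRNA export genes 8 fell and 2 rose. Over the starved days the slope of Ran did not pass (0.17 ± 0.09, limma adjusted p = 0.0939). Kpnb1, the main import receptor, went on falling, by 0.86 ± 0.09 over 14 days (limma adjusted p = 7.29e-09), from 98.1 FPKM at day 2 to 61 FPKM at day 16.

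The nuclear envelope around the pore changed unevenly: of 15 genes tested, 8 fell and 1 rose at day 2. Of all tested genes 30.7% fell and 30% rose. The B-type lamins had the largest changes, Lmnb1 from 90.2 to 6.31 FPKM and Lmnb2 from 138 to 13.6 FPKM (log2 changes -3.64 ± 0.18 and -3.25 ± 0.10, SE; limma adjusted p = 2.51e-15 and 4.46e-19). Lmna, the A-type lamin, fell by 0.75 ± 0.07 at day 2 and by a further 0.81 ± 0.09 over the starved days (limma adjusted p = 1.11e-09 and 7.53e-09). Of 10 genes that act in pore assembly at mitotic exit, 5 fell and 2 rose at day 2, set against the same shares of all tested genes. The list shares Ran and Rcc1 with the Ran cycle, Kpnb1 with the importins and Ahctf1 with the pore genes outside the naming rule, and these 4 are among its 5 falls. Rcc1, which loads Ran on chromatin, fell by 2.43 ± 0.15 (limma adjusted p = 3.33e-13).

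Proliferation genes fell beside the pore genes at day 2, and their later course differed. All 12 fell at day 2, where 30.7% of all tested genes did, with a median log2 change of -4.33. Mki67 went from 52.3 ± 10.7 to 1.5 ± 0.463 FPKM (SD, n = 3 each) and Ccna2 from 127 ± 4.52 to 2.89 ± 0.834 FPKM. From day 2 to day 8, 9 of the 12 fell and 1 rose by limma, where 18.4% and 17.4% of all tested genes did. From day 8 to day 16, 10 rose and 0 fell, with a median log2 change of 1.01, where 15.8% and 14.4% of all tested genes did. Levels stayed low in this rise: Mki67 went from 0.127 to 0.943 FPKM and Ccna2 from 0.292 to 1.5 FPKM (group means). Against control all 12 were still lower at day 16, with a median log2 change of -4.51. Of 21 pore genes, 2 fell and 2 rose from day 2 to day 8, and 1 fell and 0 rose between days 8 and 16. The part of the proliferation genes in the results on pore genes was not tested.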

How the data were processed

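Total RNA of 30 libraries was analysed from 1 deposited table of FPKM. The submitters' processing notes name rn6 as the build and the tools Cuffnorm 2.2.1, Cufflinks and TopHat2 2.1.1. The annotation, filters and scaling between libraries are not given in the sources used here. The authors deposited FPKM without counts, and low values showed no common step from which whole reads could be recovered, so depth is unknown and no counting interval is given. FPKM sums ranged from 582501 to 785072.

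Values were analysed as log2(FPKM + 1) in genes with a mean of at least 1 FPKM, with limma 3.58.1 in R 4.3.3 (empirical Bayes with trend, two-sided, Benjamini-Hochberg adjustment over 8940 genes, threshold 0.05). Group contrasts came from a fit of 10 group means, and the slope from the 27 starved libraries with day as a number. The scripts were tested on simulated data. Folds on this scale understate changes of low genes. The members, role lists and marker lists were chosen with earlier results of these data known. The rule for named genes was every member, with full statistics for the 6 smallest adjusted p in each direction, and of other lists up to 3 genes with the smallest p at day 2 and in the slope. Statistics of further members, and Rangrf, Sec13, Ranbp2 and the marker genes, were added after their values were seen.

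Groups share replicate numbers, and the series calls them biological replicates without saying what a number shares. Deviations of same-numbered libraries from their group means correlated at 0.592, 0.209 and 0.188 between control and day 2. Between control and day 16 they correlated at 0.44, 0.135 and 0.357. As what a number shares is not known, the main fits used no pairing. Fits with the number as a block are given as an alternative. In the other comparisons at least 1 pair was under 0.1. Promoters are RefSeq sequences on GRCr8, matched by symbol for 21 of 23 members. Alternatives were another pseudocount, filter and scaling, a replicate block, other forms of the model and leaving out libraries or days.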

Additional observations from a re-analysis of the deposited data

How the results depend on the processing

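At day 2 against control the count of members that fell was 18 with any 1 library left out and that of rises 0. Of 305 values of the 18 called genes under the alternatives, 303 kept their call and 2 lost it, both for Rae1. Among genes called in the main fit, no value reversed its sign in any comparison. Tpr, which was not called at day 2, lay between -0.09 and 0.01 there under the scalings. At day 16 against control 16 to 19 fell and 0 rose with 1 library left out, and 1 rose (Nup210l) without the filter on low values. Over the starved days, leaving out 1 library gave 1 to 2 rises and 9 to 13 falls. There were 2 rises without the filter, after quantile scaling and without day 6. There were 4 falls in a fit of time point means, which has 1 value for each day. Falls were 8 in a fit linear in log2 of day, 7 without day 3, 8 without day 4 and between 9 and 14 in the other fits. From day 2 to day 8, 1 to 2 rose and 1 to 2 fell with 1 library left out. Without the filter 4 rose, and 1 rose with replicates 2 and 3 only or in a fit of the 2 groups. There was 1 fall after scaling to a sum of 1000000, after leaving out short RNA genes and with replicates 2 and 3 only. Tpr rose beside Nup205 and Nup37 after scaling to a sum of 1000000, and Nup93 fell beside Nup62 and Nup85 after quantile scaling. From day 8 to day 16, 0 to 1 rose and 0 fell with 1 library left out. In that span 1 rose after quantile scaling or with the replicate block. Falls were 2 without the filter, after quantile scaling and in a fit of the 2 groups, 3 with replicates 2 and 3 only, 3 with the replicate block, 4 after scaling to a sum of 1000000 and 5 without short RNA genes. The cause was not tested. Scaling to a sum of 1000000 and leaving out short RNA genes moved the median of all genes over the starved days to -0.14 and -0.16 and that of the members to -0.33 and -0.34. They moved the share of calls that were rises, over all genes, from 47.9% to 32.6% and 30.3% there, from 48.7% to 64% and 61.6% from day 2 to day 8, and from 52.2% to 22.9% and 25% from day 8 to day 16.

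With the replicate number as a block, day 2 against control had 18 falls and 0 rises, day 16 against control 19 and 0 (Nup37 added), the slope 10 and 1, day 2 to day 8 3 and 2 (Nup43 added, adjusted p = 0.0214 by limma) and day 8 to day 16 3 falls (Tpr, Nup205 and Nup98, the latter at limma adjusted p = 0.0366 and 0.0388) and 1 rise (Nup43, 0.0185). It changed no other call. Pairs correlated at 0.0773, 0.000524 and 0.156 between days 2 and 8 and at 0.234, 0.0486 and 0.143 between days 8 and 16. For 23 of the 30 libraries the mean correlation with libraries of other groups was highest for their own number. Depth is unknown, which limits what can be said of Nup210 and Nup210l.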
